A study of Mus musculus with 47 samples.

Results

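The comparison set vector cells at 6 h after 100 cGy of X-rays against vector cells at 6 h after 10 cGy. Its 6 arrays, 3 per dose, were taken by their sample titles out of 47 arrays in the series. The comparison itself, the gene lists and the tests were chosen with earlier results of these data known. RNA of JB6 cells, a mouse line derived from epidermis and known as a model of tumour promotion, was measured on Affymetrix arrays. The series holds a line with a short hairpin RNA (shRNA) against Anxa2 and a line with the empty Ps vector, each sham-treated or irradiated. The vector cells at 100 cGy and at 10 cGy both carried the Ps vector and grew in 5% serum, and by the labels they differed only in dose; the protocol describes retroviral transfer from Phoenix cells and puromycin selection. The shRNA cells at 6 h (100 and 10 cGy, 3 arrays each) differed from them by the hairpin. Sham-treated cells were collected at 2 and 24 h, and no untreated group at 6 h was analysed here. The labels do not say whether the lines are clones, nor whether replicates are separate cultures. The p-values rest on the spread between arrays within a group, pooled over the 16 groups of all 47 arrays. That spread may be technical.

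Ionising radiation breaks DNA, and the damage signal acts through ATM, checkpoint kinases and p53 to hold cells at the borders of S phase and mitosis. G1/S genes such as the E-type cyclins and replication factors are driven by E2F factors as cells enter S phase. Mitotic genes such as Cdk1 and Aurka are switched on later, in G2, through promoters that carry CHR elements (cell cycle genes homology regions) bound by the DREAM and MuvB complexes.

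The genes called between the doses at 6 h were genes of the cell cycle. 5 mitotic genes were higher at 100 cGy than at 10 cGy (Aurka, Cenpf, Ckap2, Cdc20 and Cdk1, by log2 differences of 0.35 to 0.61). Lower were 3 genes that act at the start of S phase or during it (Ung, Ccne2 and Chaf1b, by -0.95 to -0.50). These 8 of 8675 tested genes passed a limma fit at a Benjamini-Hochberg adjusted p under 0.05, which is 0.0922% of all tested genes (0.0576% higher and 0.0346% lower), and "rose", "fell" and "called" are used below at that threshold. No gene differed by more than 2-fold, and 17 differed by more than 1.5-fold. An unadjusted p under 0.05 was found for 376 genes (4.33% of all), 169 higher and 207 lower at 100 cGy. Of the 30 genes with the smallest p, 10 belonged to a list of mitotic genes, all higher at 100 cGy, and 5 to a list of DNA replication and G1/S genes, all lower.

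**Figure D1:**
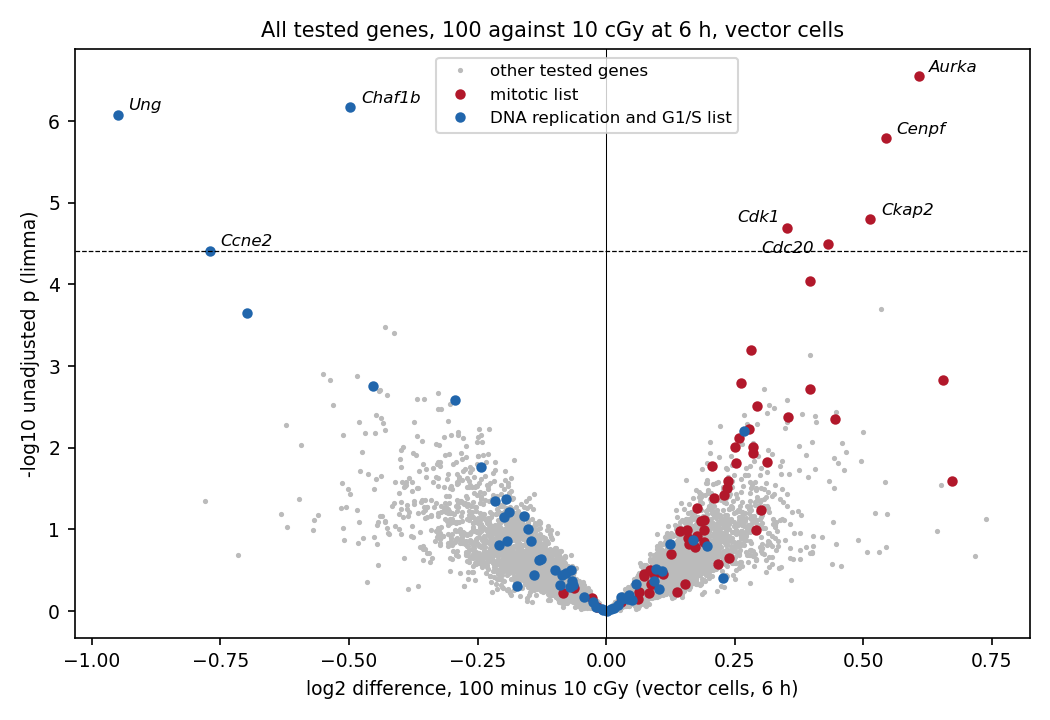
Each point is 1 of 8675 genes, with the log2 difference of 100 minus 10 cGy (vector cells, 6 h) on the x axis and -log10 of limma's unadjusted p on the y axis; red marks the mitotic list and blue the DNA replication and G1/S list. The 8 genes on or above the dashed line were called: 5 red ones on the right and 3 blue ones on the left.

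Promoter sequences of the called genes are shown here because the mitotic ones share a short motif within the window around the start site. The sequences are RefSeq windows of GRCm38.p6 (250 bases before to 50 after the start), which hold 7 of the 8 called genes. Ccne2 had no window. The motifs searched on both strands were the CHR core TTTGAA, the CCAAT box CCAAT and 4 E2F-type forms, of which the first was TTCCCGC, another TTCGCGC, the next form TTGGCGC and the last form TTGCCGC. They were chosen after the called genes were seen. Stretches of 55 to 80 bases follow, read 5′ to 3′ on the gene's own strand, with the CHR core in capitals for the mitotic genes and the E2F-type match (reverse strand of TTCCCGC) for Chaf1b.
Aurka, chr2:172370521-172370575, minus strand: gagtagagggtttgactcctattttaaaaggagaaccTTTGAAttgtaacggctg
Cenpf, chr1:189688042-189688121, minus strand: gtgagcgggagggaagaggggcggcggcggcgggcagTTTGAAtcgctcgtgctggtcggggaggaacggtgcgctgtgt
Ckap2, chr8:22185878-22185957, minus strand: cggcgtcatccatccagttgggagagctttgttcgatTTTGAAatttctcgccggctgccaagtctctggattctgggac
Cdc20, chr4:118437319-118437398, minus strand: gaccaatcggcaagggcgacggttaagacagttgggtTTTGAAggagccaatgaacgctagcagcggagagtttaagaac
Cdk1, chr10:69352885-69352964, minus strand: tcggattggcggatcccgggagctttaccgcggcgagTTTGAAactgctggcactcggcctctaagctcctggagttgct
Chaf1b, chr16:93883890-93883950, plus strand: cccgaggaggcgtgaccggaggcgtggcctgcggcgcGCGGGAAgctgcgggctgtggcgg

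With the start base counted as 0, the shown motif began at 32 in Aurka, 2 in Cenpf, -101 in Ckap2, -18 in Cdc20, -15 in Cdk1 and 26 in Chaf1b. All 5 called mitotic genes held a TTTGAA, against none of the windows of Ung and Chaf1b. All 5 also held at least 1 CCAAT, which was not in the windows of Ung and Chaf1b. Among windows of the same length, TTTGAA lay in 40 of 54 windows of the mitotic list (74.1%), in 9 of 55 of the DNA replication and G1/S list (16.4%), in 11.7% of those of all tested genes and in 17.9% of the whole table. For CCAAT the shares were 75.9%, 52.7%, 37.5% and 37.4% in the same order. An E2F-type form lay in 18.5% of mitotic windows, 56.4% of DNA replication and G1/S windows (31 of 55), 16.7% of windows of tested genes and 9.57% of the table. Chaf1b held 2 E2F-type matches, Cdk1 2 and Ung 0. These matches describe letters in a window and are no evidence of binding.

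The arrays were checked before the values were read. Keratinocyte markers were low in these cells, from Cdh1 at the 0.686 percentile of all genes to Krt8 at 38.8. Of 8 on the array, 2 lay above the filter limit of log2 4.35 (Krt5 at 4.59 and 4.76, Krt8 at 5.03 and 4.94, at 100 and 10 cGy). The adhesion protein Cdh1 stood at 2.30 and 2.38 and Trp63, the master factor of squamous epithelia, at 3.27 and 3.24. Of 8 fibroblast markers 7 lay above the limit, with Vim at 12.96 and 13.02 and Col1a2 at 12.01 and 12.16, so an epidermal identity is not borne out by these markers and the cells are called JB6 vector cells. Summed linear marker signals ran from 121 to 128 at 100 cGy and from 105 to 133 at 10 cGy for keratinocytes, and from 17319 to 19144 against 18971 to 20543 for fibroblasts, with overlap between the doses in both. Summed leukocyte markers ran from 306 to 351 at 100 cGy and from 304 to 323 at 10 cGy, and overlapped. Of 7 on the array 4 lay above the limit, the highest being Cd14 at 7.61 and 7.43, while Ptprc, the pan-leukocyte antigen, stood at 2.41 and 2.65. Melanocyte markers lay above the limit in 3 of 7 (Mitf at 6.18 and 6.16) and muscle markers in 3 of 5 (Tnnt2 at 7.68 and 7.56). A level above the limit therefore does not by itself mark a cell type. In RNA of whole cultures, fewer cells in a phase and less RNA per cell cannot be told apart. Anxa2, the shRNA's target, stood at 12.58, 12.62 and 12.61 in vector cells at 100 cGy and at 12.57, 12.49 and 12.46 at 10 cGy, against 11.05 to 11.21 in shRNA cells at 6 h.

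RNA quality differed slightly between the doses. The Gapdh 3′ minus 5′ signal difference (log2) ran from -0.05 to -0.01 at 100 cGy and from 0.03 to 0.07 at 10 cGy, and that of Actb from 0.22 to 0.31 and from 0.33 to 0.37, without overlap. Over all 47 arrays Gapdh ran from -0.09 to 1.06, and the highest value was on shRNA 10 cGy replicate 1 at 6 h. On the first principal component of the 6 arrays (35.2% of variance) the arrays at 100 cGy lay at 4.27, 2.82 and 11.2 and those at 10 cGy at 0.61, -10.8 and -8.08. The part of RNA quality in the dose differences was not tested.

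Among the mitotic genes, Aurka (chr2:172356190-172370886) encodes Aurora A, the kinase that matures centrosomes and helps start mitosis. It stood at 9.73, 9.81 and 9.78 (log2 RMA signal) at 100 cGy and at 9.33, 9.14 and 9.03 at 10 cGy. Every array at 100 cGy lay above every array at 10 cGy. Aurka rose by a log2 difference of 0.61 ± 0.10 (SE), or 1.52-fold (limma adjusted p = 0.00241).

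Cdk1 (chr10:69335146-69352912), the cyclin-dependent kinase that drives entry into mitosis, read 11.14, 11.19 and 11.19 at 100 cGy and 10.86, 10.83 and 10.78 at 10 cGy. The doses did not overlap, and the arrays of each dose lay close together. Cdk1 rose by 0.35 ± 0.07 (1.28-fold, limma adjusted p = 0.0295).

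Cdc20 (chr4:118432901-118437343) activates the anaphase-promoting complex, the ubiquitin ligase that lets sister chromatids part. Its signals were 10.70, 10.74 and 10.69 at 100 cGy and 10.36, 10.28 and 10.19 at 10 cGy, again without overlap. Cdc20 rose by 0.43 ± 0.09 (limma adjusted p = 0.0399). 2 other Cdc20 probe sets gave differences of 0.28 and 0.30, also without overlap between doses. In a fit of all probe sets above the filter limit these 2 were not called (limma adjusted p = 0.761 each). The main Cdc20 probe set missed the threshold there (0.0626).

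Cenpf (chr1:189640606-189688107) encodes a large protein of the outer kinetochore that accumulates in G2. It measured 8.50, 8.39 and 8.40 at 100 cGy and 8.04, 7.97 and 7.65 at 10 cGy, with the third 10 cGy array the lowest. Cenpf rose by 0.54 ± 0.10 (limma adjusted p = 0.00347). A second Cenpf probe set of low signal (mean 5.22 over all arrays) differed by 0.07 and its doses overlapped. With the probe sets averaged the difference was 0.31 and the call was lost (adjusted p = 0.493).

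Ckap2 (chr8:22168149-22185819), a microtubule-binding protein of the spindle that is also a p53 target, had 9.76, 9.82 and 9.75 at 100 cGy and 9.29, 9.32 and 9.17 at 10 cGy. All arrays at 100 cGy were higher, and Ckap2 rose by 0.51 ± 0.10 (limma adjusted p = 0.0275).

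The genes that fell act at the start of S phase or during it. Ung (chr5:114130366-114139321), the uracil-DNA glycosylase that removes uracil from newly made DNA, read 6.12, 6.14 and 6.21 at 100 cGy and 7.06, 7.20 and 7.05 at 10 cGy. The gap between the doses was wider than the spread within either dose. Ung fell by 0.95 on the log2 scale (SE 0.16, limma adjusted p = 0.00241), so that its signal at 10 cGy was 1.93 times that at 100 cGy.

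Ccne2 (chr4:11190433-11204779), cyclin E2, which activates Cdk2 at the start of S phase, stood at 7.51, 7.04 and 7.12 at 100 cGy and at 7.96, 8.16 and 7.87 at 10 cGy. The first array at 100 cGy lay nearest to the other dose but did not reach it. Ccne2 fell by 0.77 (SE 0.16, limma adjusted p = 0.0419). In the fit of all probe sets it missed the threshold (limma adjusted p = 0.0711).

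Chaf1b (chr16:93883900-93906115), the p60 subunit of chromatin assembly factor 1, which loads histones behind the replication fork, measured 6.98, 7.35 and 7.27 at 100 cGy and 7.69, 7.68 and 7.71 at 10 cGy. Its 10 cGy arrays lay within a narrow band, and its 100 cGy arrays were spread below it. Chaf1b fell by 0.50 (SE 0.08, limma adjusted p = 0.00241).

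**Figure D2:**
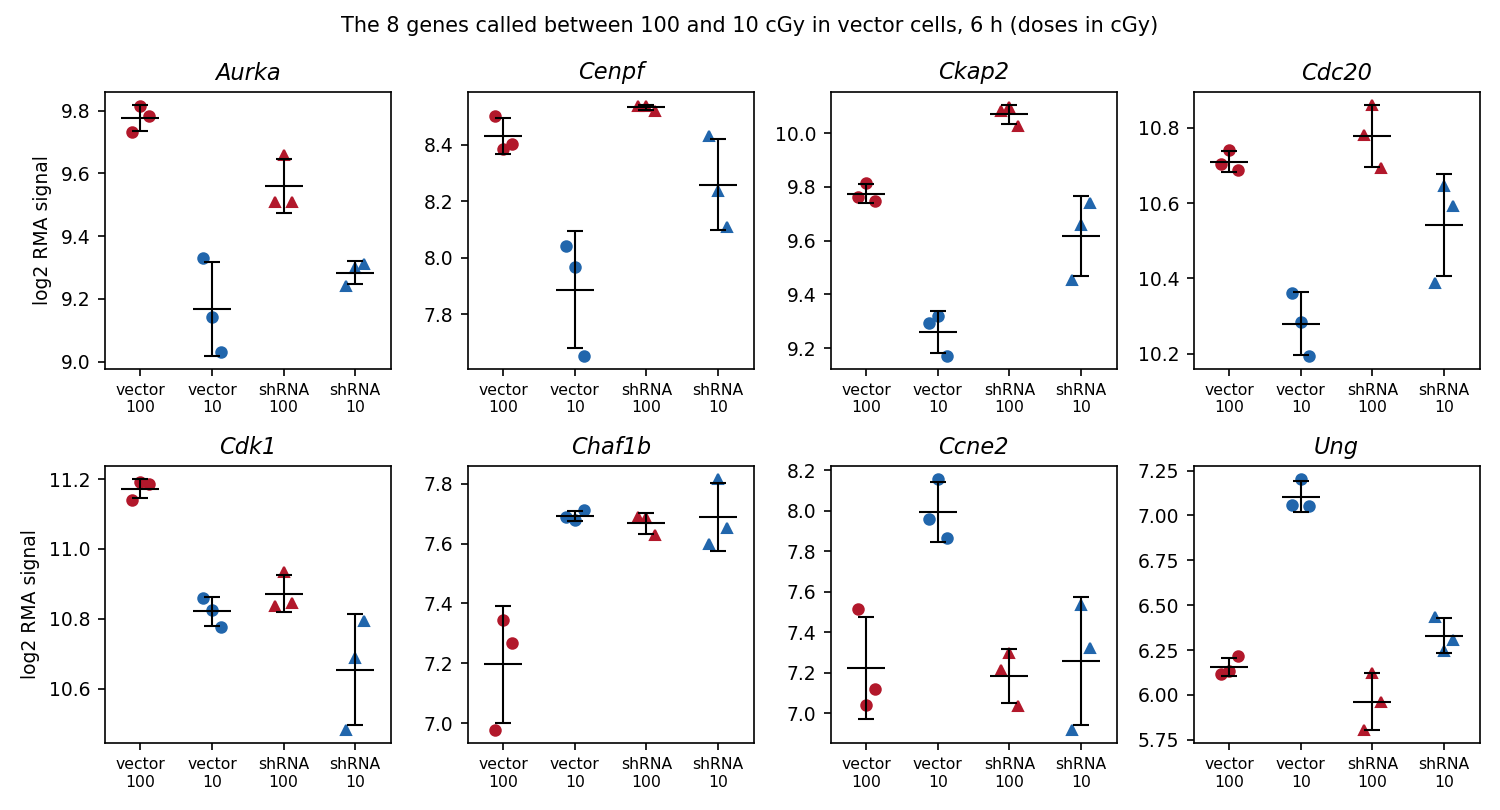
The y axis of each panel is the log2 RMA signal of a called gene at 6 h, in vector cells (circles) and shRNA cells (triangles), at 100 cGy (red) and 10 cGy (blue); points are arrays, and lines give the mean ± SD of 3. In vector cells the doses do not overlap in any panel, from Aurka (9.73 to 9.81 at 100 cGy, 9.03 to 9.33 at 10 cGy) to Ung (6.12 to 6.21 at 100 cGy, 7.05 to 7.20 at 10 cGy).

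Leaving out 1 of the 6 arrays at a time left 3 or 4 called genes. Aurka and Ung passed each time, and Chaf1b failed only without 100 cGy replicate 1 (adjusted p = 0.0815). Cenpf failed without 100 cGy replicate 1 (0.0736) and without 10 cGy replicate 3 (0.206). Cdc20, Cdk1 and Ckap2 failed in all 6 of these fits, and Ccne2 in all but the one without 100 cGy replicate 1. In a fit of the 6 compared arrays alone, Ung and Ccne1 were called and the other 7 genes had an adjusted p of 0.0869 to 0.208. A fit of the vector arrays alone ended the calls of Ung (0.0872), Cdk1 and Ccne2 (both 0.152) and Ckap2 (0.415). Without the filter on low genes Cdc20, Cdk1 and Ccne2 missed the threshold (0.0623 each), and Ccne2 also missed it with a replicate block (0.0716), after quantile normalization (0.12) and after centring (0.104).

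Mitotic genes as a group lay above 0. Of 59 tested members, 5 rose, 0 fell and the other 54 did not pass. The difference was above 0 in 55 members (against 51% of all tested genes), and the arrays did not overlap, with 100 cGy higher, in 30 (against 7.31%) and lower in 0 (against 8.08%). The median difference was 0.20, beside 0.00 over all tested genes. Taking each array's median over the list against the 10 cGy mean, the arrays at 100 cGy stood at 0.18, 0.22 and 0.23 and those at 10 cGy at 0.03, 0.01 and -0.07.

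By role, the medians were positive in every mitotic group. The 8 kinesin motors had a median of 0.29 and all 8 were above 0, with Kif11, the motor that pushes spindle poles apart, at 0.67 (limma adjusted p = 0.917, not called) and Kif4 at 0.28 (adjusted p = 0.39). Mitotic kinases had a median of 0.19 and all 8 were above 0. Besides Aurka they include Nek2, a centrosome kinase, at 0.35 (adjusted p = 0.811) and Plk1, a regulator of mitotic entry and exit, at 0.28 (adjusted p = 0.917).

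The 10 cyclins, Cdk1 and partners had a median of 0.25 and 9 were above 0. Ccna2, cyclin A2, measured 9.98 at 100 cGy and 9.72 at 10 cGy (means of 3 arrays; difference 0.26, not called). The 7 spindle and microtubule proteins had a median of 0.26 and all were above 0. Dlgap5, which stabilises spindle fibres, came closest to the threshold with 8.10, 8.23 and 8.32 at 100 cGy and 7.83, 7.83 and 7.80 at 10 cGy (difference 0.40, limma adjusted p = 0.0874). Its doses did not overlap. It was called with a replicate block (0.0134), with the lowest 50% of genes left out (0.0483), after quantile normalization (0.0102) and after centring (0.00857). It was also called with array weights (0.00426), in a fit that did not converge. Tpx2, the activator of Aurora A, differed by 0.26 (adjusted p = 0.695). Aspm, a spindle pole protein, differed by 0.40 (adjusted p = 0.696, but 0.0484 with a replicate block and 0.0177 in the unconverged fit with array weights).

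Of the 3 genes that act at the anaphase-promoting complex and on sister chromatids, Ube2c, its ubiquitin-conjugating enzyme, read 10.62, 10.68 and 10.84 at 100 cGy and 10.24, 9.95 and 9.98 at 10 cGy. Its difference of 0.65 was larger than that of Aurka, with a larger standard error of 0.19 (adjusted p = 0.683). The 11 centromere, kinetochore and checkpoint genes had a median of 0.14, all above 0, and included Birc5, survivin, at 0.24 (not called). The 5 cytokinesis genes had a median of 0.23, all above 0, with Prc1, which bundles midzone microtubules, at 0.29 (not called). The lowest median, 0.07, was that of the 7 condensins and chromosome structure genes, 5 of them above 0, with Top2a, topoisomerase II alpha, at 0.25 and overlapping doses. Nusap1, a spindle protein outside the list that was picked after its values were seen, stood at 8.21 at 100 cGy and 7.68 at 10 cGy. Its adjusted p was 0.176, but 0.0106 with a replicate block and 0.000946 with array weights, a fit that did not converge.

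Among 52 tested DNA replication and G1/S genes, 3 fell, 0 rose and 49 did not pass. 33 lay below 0 (against 49% of all tested genes), and in 15 every array at 100 cGy was below every array at 10 cGy (against 8.08%), with the opposite order in 2 (against 7.31%). The median was -0.07. The array medians were -0.07, -0.04 and -0.02 at 100 cGy and 0.03, 0.01 and -0.03 at 10 cGy, so that the doses overlapped.

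By role, the medians lay lowest in the G1/S regulators and in the role of uracil removal and chromatin assembly. The role named for uracil removal and chromatin assembly held 5 genes, all below 0 with a median of -0.29. Besides Ung and Chaf1b they were Slbp, the histone mRNA binding protein (-0.29, limma adjusted p = 0.738), Uhrf1 (-0.21) and Dnmt1, the maintenance DNA methyltransferase (-0.20). The role is thus a mixed set that does not stand for a single function. The 4 G1/S regulators had a median of -0.35. Ccne1, cyclin E1, stood at 6.95, 7.05 and 6.98 at 100 cGy and at 7.67, 7.70 and 7.70 at 10 cGy. The doses did not overlap, and the difference was -0.70 ± 0.17, not called (adjusted p = 0.178). Exceptions were the fit of the compared arrays alone (0.00963), the replicate block (0.0484) and array weights (0.00115, in a fit that did not converge).

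Origin licensing and firing genes, 19 in all, had a median of -0.04. In 4 of them every array at 100 cGy was below every array at 10 cGy (against 8.08% of all tested genes). The opposite order held in 1 (against 7.31%). Cdc6, which loads the MCM helicase, read 8.59, 8.62 and 8.47 at 100 cGy and 8.91, 9.22 and 8.91 at 10 cGy (difference -0.45, adjusted p = 0.696). Dbf4, the partner of the Cdc7 kinase, lay the other way at 0.27 (adjusted p = 0.855). The 20 polymerase, clamp and fork genes also had a median of -0.04, with Rpa1, the single-strand binding protein, lowest at -0.24 (not called). In 5 of the 20 all arrays at 100 cGy were lower, and in 1 all were higher. The 4 nucleotide supply genes had a median of 0.01.

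**Figure D3:**
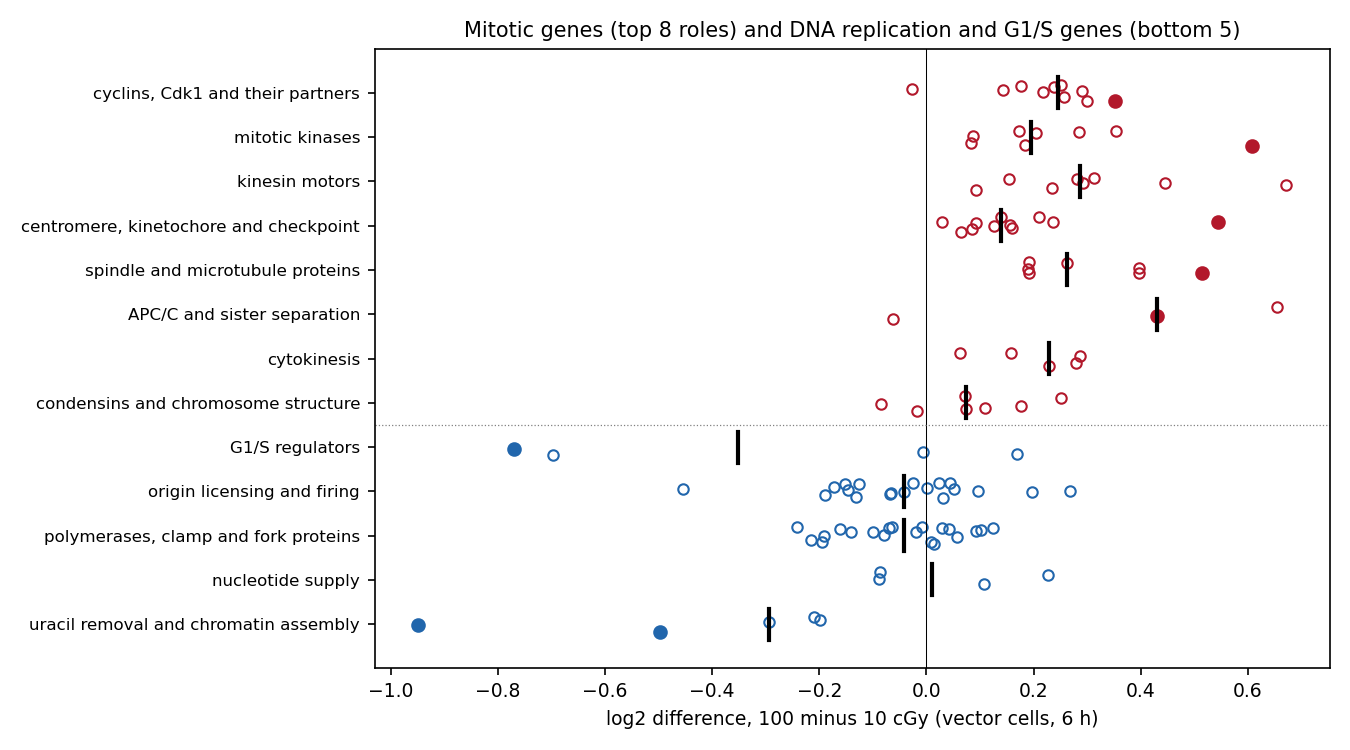
Each point is a gene of the mitotic list (red, the upper 8 roles) or the DNA replication and G1/S list (blue, the lower 5), on the log2 difference of 100 minus 10 cGy in vector cells at 6 h; filled points were called and black bars are the medians by role. Kinesin motors, kinases, kinetochore, spindle and cytokinesis genes lie wholly above 0. The mixed role named for uracil removal and chromatin assembly lies wholly below it.

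Targets of p53 (arrest and feedback) were examined because p53 acts on both cell cycle borders. Of 37 tested members 1 rose (Ckap2, which is also on the mitotic list) and 0 fell. 28 lay above 0 (against 51% of all tested genes), 12 were higher at 100 cGy in every array (against 7.31%) and 0 lower (against 8.08%), and the median was 0.12. Mdm2, the ubiquitin ligase that degrades p53, stood at 9.75, 9.70 and 9.65 at 100 cGy and at 9.35, 9.30 and 9.26 at 10 cGy. Its doses did not overlap, but the difference of 0.40 ± 0.11 was not called (limma adjusted p = 0.422). Exceptions were the replicate block (0.0369) and array weights (0.00506, in a fit that did not converge). A second Mdm2 probe set differed by 0.86 ± 0.25, also without overlap, and was not called in the fit of all probe sets (limma adjusted p = 0.761).

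Cdkn1a, the Cdk inhibitor p21, read 10.68, 10.78 and 10.74 at 100 cGy and 10.44, 10.38 and 10.52 at 10 cGy (difference 0.29 ± 0.11, adjusted p = 0.917). Its other probe set differed by 0.70 ± 0.34 without overlap, and was not called in the fit of all probe sets (limma adjusted p = 0.888). Ccng1, cyclin G1, differed by 0.12 ± 0.11 with overlapping doses in its brightest probe set. The others differed by 0.59 ± 0.22 and 0.34 ± 0.19 without overlap, and neither was called (limma adjusted p = 0.888 each). Phlda3, an inhibitor of Akt, differed by 0.32 (adjusted p = 0.76), Gtse1, a G2 and S phase p53 regulator, by 0.44, Slc19a2, a thiamine transporter, by 0.29 and Dcxr, a carbonyl reductase, by 0.29. None of these 4 was called, and in each of them the doses did not overlap.

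Of the 28 lists examined, 25 had no called member, where 0.0922% of all tested genes were called. At that share the lack of a call says little about a list. The 49 tested DNA repair genes had a median of -0.03 with 20 above 0. Ung, which removes uracil from DNA and fell, is not on this list and was counted with the DNA replication and G1/S genes. In this list the mismatch repair gene Msh6 stood at 8.18, 7.97 and 8.14 at 100 cGy and 8.50, 8.47 and 8.29 at 10 cGy (difference -0.33, limma adjusted p = 0.776), and the checkpoint kinase Chek1 differed by -0.33 (adjusted p = 0.917). The 30 apoptosis genes had a median of 0.01, with Fas, the death receptor, at 0.45 and overlapping doses, Casp9 at 0.35 and the adaptor Fadd at -0.37, none called. Anxa2 itself differed by 0.10 ± 0.08 (adjusted p = 0.917).

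The same dose contrast was then set beside the shRNA line. In shRNA cells at 6 h 0 genes were called (0% of 8675; 299 at an unadjusted p under 0.05, 3.45%, lowest adjusted p = 0.438), also without 10 cGy replicate 1. For the difference between the lines, vector minus shRNA, limma called 0 genes as well (346 at an unadjusted p under 0.05, lowest adjusted p = 0.946). No dose difference of a gene was therefore shown to be particular to vector cells.

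Aurka differed by 0.61 in vector cells and 0.27 in shRNA cells, Cenpf by 0.54 and 0.27, Ckap2 by 0.51 and 0.45, Cdc20 by 0.43 and 0.24, and Cdk1 by 0.35 and 0.22. In shRNA cells too the arrays of these 5 genes did not overlap. Ung differed by -0.95 in vector cells and -0.37 in shRNA cells, where its doses also did not overlap. Chaf1b differed by -0.50 and -0.02, and Ccne2 by -0.77 and -0.07, with overlapping doses in shRNA cells. These shRNA values include 10 cGy replicate 1, the array with the highest Gapdh 3′ minus 5′ difference. Ccne2 read 6.92 on that array, beside 7.53 and 7.32 on the other shRNA 10 cGy arrays. Among those arrays it was also lowest for Aurka, Ckap2, Cdc20, Cdk1 and Chaf1b, and highest for Cenpf and Ung. The part of that array in the differences of single genes was not tested. The test of the line difference for Chaf1b gave -0.48 ± 0.12 (limma adjusted p = 0.946) and for Ccne2 -0.70 ± 0.23 (adjusted p = 0.946).

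Over the lists, mitotic genes had a median of 0.20 in vector cells and 0.14 in shRNA cells, with 55 and 54 of 59 above 0. In the shRNA line 46.9% of all tested genes were above 0, and 19 of the 59 had all arrays higher at 100 cGy (against 4.17% of all). The shRNA array medians over the list were 0.14, 0.16 and 0.12 at 100 cGy and -0.02, 0.03 and -0.03 at 10 cGy. DNA replication and G1/S genes had medians of -0.07 in vector cells and -0.02 in shRNA cells. In shRNA cells 30 of the 52 were below 0 (against 53.1% of all tested genes) and 2 had all arrays lower at 100 cGy (against 5.15%). The p53 targets had medians of 0.12 in vector cells and 0.09 in shRNA cells.

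**Figure D4:**
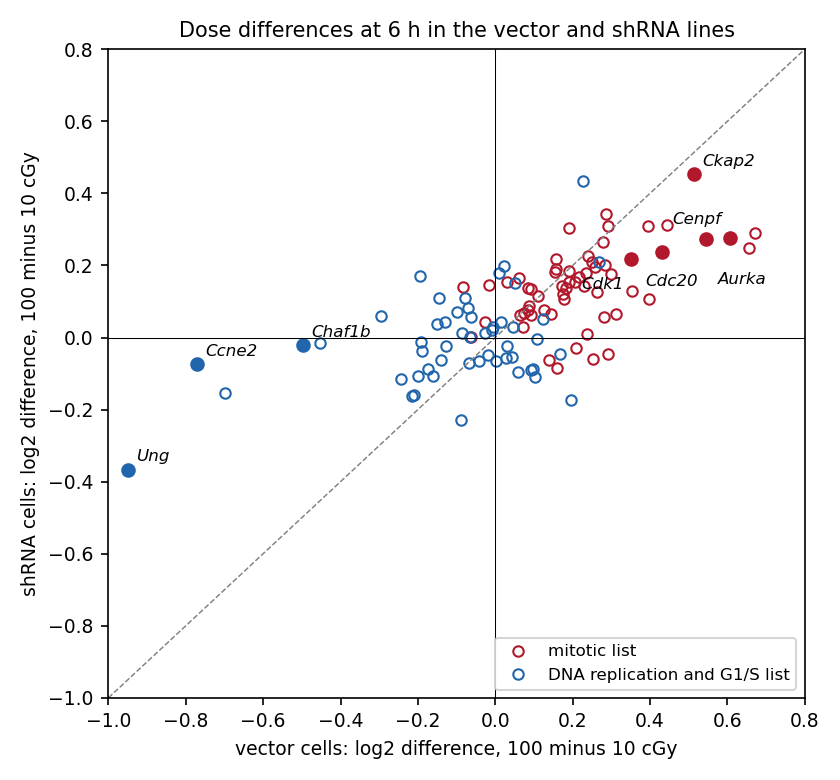
Log2 differences of 100 minus 10 cGy at 6 h in vector cells (x axis) and shRNA cells (y axis) for mitotic genes (red) and DNA replication and G1/S genes (blue); filled points were called in vector cells and the dashed line marks equal differences. The 5 called mitotic genes lie at 0.22 to 0.45 in shRNA cells, while Chaf1b (-0.02) and Ccne2 (-0.07) lie near 0 there. The shRNA differences include 10 cGy replicate 1, the array with the highest Gapdh 3′ minus 5′ difference.

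Within the vector line the contrast was followed over time. 3 vector arrays at 2 h, those numbered 3, lay apart from the other 6 (16.1 to 21.8 against -11.5 to -7.36 on a first component with 49.6% of the variance), and 10 cGy at 24 h had 2 arrays. At 2 h 3 genes were called, all higher at 100 cGy (0.0346% of tested genes): the p53 targets Slc19a2 (0.65, limma adjusted p = 0.00251) and Mdm2 (0.63, adjusted p = 0.0048) and the long noncoding RNA Neat1 (0.97, adjusted p = 0.0207). Without the 3 arrays that lay apart 13 genes were called at 2 h, these 3 among them, leaving out 1 array at a time gave 0 to 29, and a fit of the vector arrays alone gave 0. At 24 h 0 genes were called (132 at an unadjusted p under 0.05), and Cdkn1a had the lowest adjusted p, 0.532, with a difference of 0.52.

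None of the 8 genes called at 6 h was called at 2 or 24 h, where 0.0346% and 0% of all tested genes were called. These 8 were chosen by their 6 h difference, so the lack of a call at another time does not show a change. Aurka differed by -0.03 at 2 h, 0.61 at 6 h and -0.15 at 24 h, and Chaf1b by 0.03, -0.50 and 0.15. For Cdk1 the differences were 0.01, 0.35 and -0.16, for Cdc20 -0.01, 0.43 and -0.09, for Cenpf 0.06, 0.54 and 0.04, and for Ckap2 0.11, 0.51 and 0.10. Ung (-0.33, -0.95 and 0.13) and Ccne2 (-0.35, -0.77 and -0.03) were below 0 at 2 h too, without a call.

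The change of the contrast between 6 and 24 h passed for Aurka (0.76 ± 0.15, limma adjusted p = 0.0328) and Chaf1b (-0.65, adjusted p = 0.0328), 2 of 8675 genes (0.0231%), and for neither in a fit of the vector arrays alone (adjusted p = 0.3 for both). Between 6 and 2 h no gene passed (155 at an unadjusted p under 0.05), and Aurka (0.64) and Chaf1b (-0.52) had the lowest adjusted p, 0.325. A change of the dose difference between 2 and 6 h was therefore not shown for any gene. Mitotic genes had medians of -0.01 at 2 h (28 of 59 above 0), 0.20 at 6 h (55 of 59) and -0.13 at 24 h (7 of 59). For p53 targets the medians were 0.17, 0.12 and 0.16, with 33, 28 and 31 of 37 above 0, and for DNA replication and G1/S genes 0.04, -0.07 and -0.04.

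Levels against the mean of the untreated vector cells at 2 and 24 h are given as a description, since untreated levels themselves differed between those times. Relative to it Aurka lay at 0.32 after 100 cGy and -0.29 after 10 cGy, and Cdk1 at -0.07 and -0.42. Cenpf lay at -0.08 and -0.62, Ckap2 at 0.10 and -0.42, and Cdc20 at 0.15 and -0.28, in the same order of doses. At 100 cGy these 5 mitotic genes thus lay within 0.32 of that mean on either side, and at 10 cGy all 5 were below it. Ung lay at -0.30 after 100 cGy and 0.64 after 10 cGy, Ccne2 at -0.23 and 0.54, and Ccne1 at -0.18 and 0.52, below the mean at 100 cGy and above it at 10 cGy. Chaf1b lay at -0.48 and 0.02. Cdkn1a was above the mean at both doses, at 0.86 after 100 cGy and 0.57 after 10 cGy.

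**Figure D5:**
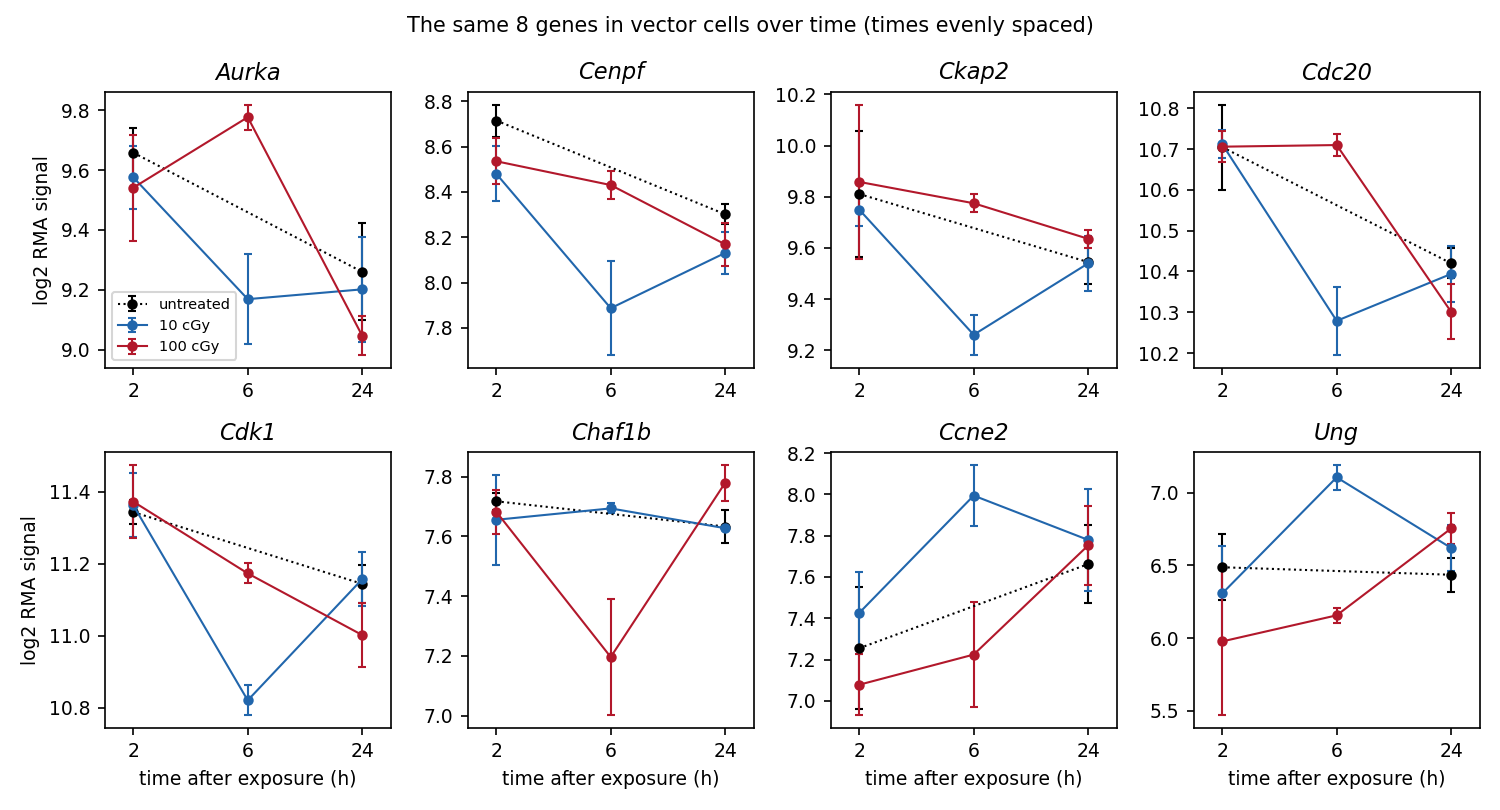
Mean log2 RMA signal ± SD of the 8 called genes in vector cells (y axis) at 2, 6 and 24 h (x axis, evenly spaced) for untreated cells (black, measured at 2 and 24 h), 10 cGy (blue) and 100 cGy (red); n is 3 arrays, or 2 for 10 cGy at 24 h. The genes were chosen by their dose difference at 6 h, so a wider gap at that time follows in part from the choice. At 6 h Aurka has a mean of 9.78 at 100 cGy and 9.17 at 10 cGy, and Ung 6.16 at 100 cGy and 7.10 at 10 cGy.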

How the data were processed

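RNA of 47 JB6 samples was measured on Affymetrix mouse arrays, 1 per sample. Per the submitters' processing notes the authors summarised probe signals by RMA, and the deposited values are log2 signals (1.84 to 14.03), used as deposited. No RMA software or version is given in the sources used here. Precision is limited by how few arrays each group has. Of 22690 probe sets, 64 are controls; the platform annotation pairs 20380 with a single gene symbol, 691 with several and 1555 with none, and only the single ones were used. For each of 12393 genes the probe set with the highest mean was used, and the 30% with the lowest mean (under 4.35) were left out, which left 8675 genes. Names and positions came from RefSeq (GRCm38.p6).

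Means of 16 groups (line, dose and time) were fitted to all arrays with limma 3.58.1 in R 4.3.3 (31 residual and 5.68 prior degrees of freedom), with two-sided p-values adjusted by Benjamini-Hochberg over all tested genes. The comparison, the 28 gene lists and the tests were chosen with earlier results of these data known. Genes were named by a rule: called genes without overlap, up to 6 members of a list by smallest p, and Cdkn1a, Mdm2, Ccng1 and Anxa2. Kif4, Kif11, Ube2c, Tpx2, Aspm, Plk1, Nek2, Ccna2, Top2a, Prc1, Birc5, Dbf4, Rpa1, Uhrf1, Dnmt1 and Nusap1 fall outside it and were chosen after their values were seen. Data were simulated with 200 changed genes of 8675. There the 6 h dose contrast recovered 67% of log2 changes of 0.5 and 98% of those of 1, with 2.94% false calls. The line difference recovered 37% and 93%, with 6.47% false calls. Under Benjamini-Hochberg the recovered share depends on how many genes change. The real contrasts called 8 and 0 genes, so these shares do not give their power, which was not tested. Alternatives covered the arrays in the fit, a replicate block, filters, probe sets, scaling, array weights and leaving out single arrays.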

Additional observations from a re-analysis of the deposited data

Results flagged for a closer look

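In vector cells the 100 minus 10 cGy difference of Aurka differed between 6 and 24 h by 0.76 on the log2 scale, and that of Chaf1b by -0.65, by a test of the difference itself (limma adjusted p = 0.0328 for both). Aurka differed by 0.61 at 6 h and -0.15 at 24 h, and Chaf1b by -0.50 and 0.15. Neither call held in fits of the vector arrays alone (adjusted p = 0.3 for both), and the 24 h contrast rests on 2 arrays at 10 cGy. Without 10 cGy replicate 1 at 24 h the adjusted p was 0.695 for Aurka and 0.561 for Chaf1b.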

How the results depend on the processing

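The 6 h dose contrast in vector cells called 8 genes. It called 2 in a fit of the compared arrays alone, 4 with only the vector arrays and 5 with no filter on low genes. Counts were 16 with the replicate block, 24 with array weights (which did not converge) and 3 to 4 with 1 array left out. Under the other settings the count was within 1.5 times of 8. The replicate block kept 7 of the 8 genes. The labels do not say what the replicate numbers share. Deviations of same-numbered 6 h arrays correlated at -0.06, 0.08 and -0.11 in vector cells and at 0.36, 0.30 and -0.07 in shRNA cells, so the block was kept as an alternative, although at 2 h the 3 vector arrays numbered 3 lay together. In shRNA cells at 6 h (0 called) the replicate block called 2, array weights 2 and leaving out arrays 0. At 2 h in vector cells (3 called) the fits of compared arrays and of vector arrays called 0, the replicate block 8, array weights 1318, leaving out the 3 arrays numbered 3 called 13, and single arrays left out 0 to 29. At 24 h (0 called) the compared arrays alone and no filter called 1 each, the replicate block 3, array weights 4 and single arrays left out 0. The 6 minus 2 h difference (0 called) gave 1 with the replicate block, 49 with array weights, 5 without the 3 arrays numbered 3, and 0 to 2 with single arrays left out. The 6 minus 24 h difference (2 called) gave 0 with only the vector arrays and with no filter, 5 with the replicate block, 10 with array weights and 0 to 1 with single arrays left out. The line difference called 0 under every setting. The cause of these changes was not tested. For the 6 h vector contrast alone, 733 pairs of a named gene (46 in all) and a setting were compared, of which 672 kept their direction and side of the threshold, 44 lost and 17 gained a call, and 0 changed direction. Fits with 1 array left out leave 2 at that dose, taken to vary like the other groups.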

Other observations

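Genes of the matrix and of adhesion lay slightly lower at 100 cGy than at 10 cGy in vector cells at 6 h, without a call. Of 43 tested extracellular matrix and mesenchymal genes, 32 were below 0 (against 49% of all tested genes) with a median of -0.08, and in 6 every array at 100 cGy was below every array at 10 cGy (against 8.08%). Col3a1, a fibrillar collagen chain, differed by -0.29 (limma adjusted p = 0.855) and Cdh2, N-cadherin, by -0.38 (adjusted p = 0.917). In shRNA cells the median of this list was 0.05, with 17 of 43 below 0. Of 25 tested TGF-beta and YAP targets, 9 had all arrays lower at 100 cGy (against 8.08%) and 2 all higher, with a median of -0.14 in vector cells and 0.03 in shRNA cells. Of 48 actin cytoskeleton and adhesion genes, 33 were below 0 (against 49%) with a median of -0.04, and 7 had all arrays lower (against 8.08%). In shRNA cells their median was 0.04, with 17 of 48 below 0. Among secreted proteins, the collagenase Mmp13 stood at 7.24 at 100 cGy and 7.60 at 10 cGy (means of 3 arrays, not called) and the acute phase protein Saa3 at 5.79 and 6.06 (not called).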
